A study of Mus musculus with 4 samples.

Results

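The SLAM family is a group of immunoglobulin-type cell surface receptors whose genes lie side by side on mouse chromosome 1. The 8 genes described here are Slamf1, Cd48, Slamf6, Slamf7, Slamf8, Slamf9, Ly9 and Cd84. Their members in the data are the 42 accessible regions (peaks) that the deposited table assigns to one of these gene names, of 130941 peaks and 31518 gene names in all. The rule uses gene names alone. Accessibility was measured by fast-ATAC, in which a transposase cuts and tags open DNA, in bone marrow cells sorted as Lin-Sca1+ckit+ from mice 10 weeks old. This gate holds blood stem cells together with multipotent progenitors. There were 2 wild-type mice and 2 Helios null mice, with 1 library each. Helios, the product of Ikzf2, is a transcription factor related to Ikaros. The labels name neither the strain nor the deleted part of the gene.

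Most SLAM receptors bind the same receptor on a neighbouring cell and signal through small SH2 adaptors, whereas CD48 is anchored in the membrane by a lipid and binds CD244 and CD2. In mouse bone marrow the product of Slamf1, CD150, is a surface marker of long-term blood stem cells. CD48 is carried by most progenitors and mature blood cells and is low or absent on long-term stem cells, so the pair is used to divide the Lin-Sca1+ckit+ gate. The sort used here did not include either marker. In bulk libraries a different share of CD150+ or CD48+ cells and a different accessibility per cell cannot be told apart.

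The promoters of Slamf1 and Cd48 are shown because this marker pair is the one the gate is divided by. Both are RefSeq sequences of the GRCm38.p6 build, the plus strand of chromosome 1, and the 250 bases that end at the annotated start. Capitals mark GGGAA or its reverse complement TTCCC, the core recognised by Ikaros-family proteins.
Slamf1, chr1:171766882-171767131: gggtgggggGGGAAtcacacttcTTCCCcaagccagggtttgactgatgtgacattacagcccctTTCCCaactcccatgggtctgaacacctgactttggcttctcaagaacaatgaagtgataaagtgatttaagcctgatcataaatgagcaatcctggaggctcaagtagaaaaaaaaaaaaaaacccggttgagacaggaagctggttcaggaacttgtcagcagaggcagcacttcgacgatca
Cd48, chr1:171681742-171681991: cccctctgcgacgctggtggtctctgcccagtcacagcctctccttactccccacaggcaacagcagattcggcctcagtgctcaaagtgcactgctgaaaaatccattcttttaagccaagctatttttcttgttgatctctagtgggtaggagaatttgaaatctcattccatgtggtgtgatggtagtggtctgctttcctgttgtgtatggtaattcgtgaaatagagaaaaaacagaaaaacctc
The Slamf1 window held 3 matches, at positions 10, 24 and 66 counted from its first base, and the Cd48 window held 0. All 3 Slamf1 matches lay outside the Slamf1 promoter peak, which covered 81 of the 250 bases, while the Cd48 promoter peak covered all 250.

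Windows of this kind were found in RefSeq for 7 of the 8 genes, Ly9 having no entry. On both strands, GGGAA occurred in 1 of these 7 windows, against 56.2% of 32851 mouse promoter windows of the same length. The ETS core GGAA, which every GGGAA also contains, occurred in 6 of 7 (93.4% of all windows) and the E-box CANNTG in 7 of 7 (66.2%). The RUNX sequence TGTGGT occurred in those of Cd48 and Cd84 (14.0% of all windows) and the GATA sequence AGATAA in 0 of 7 (9.99%). These are letter matches and not evidence of binding.

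The 4 libraries held 16033211 to 30290804 counts in peaks, and values below are counts scaled to library size with TMM factors (CPM). Counts at 4 Y-linked genes were 1715 and 1166 for the libraries numbered 1 (wild type first) but 5 and 2 for those numbered 2. The number therefore followed sex in both genotypes, and number 1 was also the deeper library. For this reason some differences, but not all, are also given within a number, as values with no test. The most accessible promoter peak of Ikzf2 remained accessible in Helios null, at 32.8 and 48.2 CPM in wild type against 22.2 and 24.0 CPM. It did not pass the test (log2 fold change -0.80, edgeR adjusted p = 0.189). The other promoter peaks of Ikzf2, at 1.78 to 3.16 CPM, had log2 fold changes of 0.04, -0.15 and -0.25. Among markers of the sorted cells, 5 of 6 genes (Kit, Cd34, Flt3, Meis1 and Hlf) had peaks, and no peak carried the name Ly6a. All peaks of the 5 summed to 594 and 577 CPM in wild type and 587 and 575 in Helios null, which overlapped. Their promoter peaks alone summed to 181 and 194 CPM in wild type and 169.9 and 174 in Helios null. For the other cell types the sums below are over all peaks. Peaks of 4 of 8 T and NK cell markers summed to 132 and 137 CPM in wild type and 136 and 143 in Helios null. Peaks of 5 of 6 B cell markers summed to 104 to 111 CPM, of all 5 erythroid markers to 144 to 159 and of 4 of 5 mast cell and basophil markers to 27.9 to 38.3, with the groups overlapping. Peaks of the 8 mature myeloid markers summed to 181 CPM in both wild-type libraries and to 144 and 151 in Helios null. The part of this difference, and of that in the promoter peaks of the sorted cells' markers, in the SLAM values was not tested.

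The 42 peaks spread over 1001 kb (chromosome 1, start 171593446, end 172594784 in mm10), 102 Mb from Ikzf2 on the same chromosome. Ly9, Slamf7, Cd48, Slamf1, Cd84 and Slamf6 follow each other in this order, and Slamf9 and Slamf8 lie apart from them at the far end. Introns held 14 of the peaks (33.3%, against 32.1% of all peaks), distant promoters 13 (31.0% against 24.0%), promoters 5 (11.9% against 15.2%), intergenic sequence 4, exons 4 and transcript ends 2. Mean accessibility over the 4 libraries ran from 0.843 to 21.9 CPM, with a median of 2.61 against 3.17 over all tested peaks. The most accessible sites of Slamf1, Cd84, Slamf6, Slamf7 and Ly9 were not in the promoter class.

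**Figure D1:**
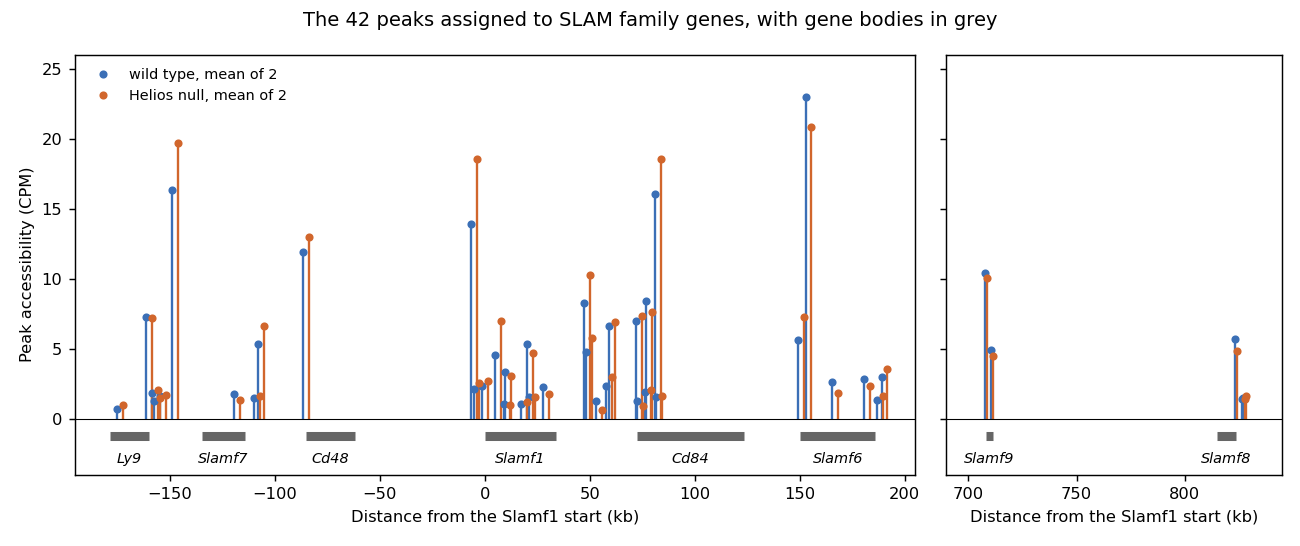
Accessibility of the 42 SLAM family peaks, as the mean of 2 libraries per genotype in CPM, against distance from the Slamf1 start in kb; wild-type and Helios null points of a peak are set slightly apart sideways so that both show, and grey bars are gene bodies. Single tall peaks stand at Ly9, Cd48, Slamf1, Cd84 and Slamf6, with means of 16.3 in wild type and 19.7 in Helios null at Ly9, 11.9 and 13.0 at Cd48, 13.9 and 18.6 at Slamf1, 16.0 and 18.5 at Cd84 and 23.0 and 20.9 at Slamf6.

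Per kb of peak, Slamf9 was the most accessible gene of the family. Its summed accessibility was 15.2 CPM per kb in both wild-type libraries and 14.9 and 14.8 in Helios null, above every value of the next gene, Cd48, whose mean over 4 libraries was 13.1 ± 2.08 (SD, n = 4). Cd84 followed at 12.8 ± 1.33, and its libraries overlapped those of Cd48. Ly9 at 9.81 ± 1.23 and Slamf6 at 9.68 ± 0.757 overlapped each other and lay below every Cd84 value. Slamf1 (7.19 ± 0.778), Slamf7 (6.72 ± 0.626) and Slamf8 (5.99 ± 0.357, n = 4 each) came last, below every Slamf6 value, and neighbours among these 3 overlapped. The stem cell marker gene Slamf1, with 10 peaks, stood lower in this order than Cd48, with 1. The order depends on the assigned gene names. The Cd48 value is that of its promoter peak alone, because the peaks within its gene body carry another name and were left out.

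**Figure D2:**
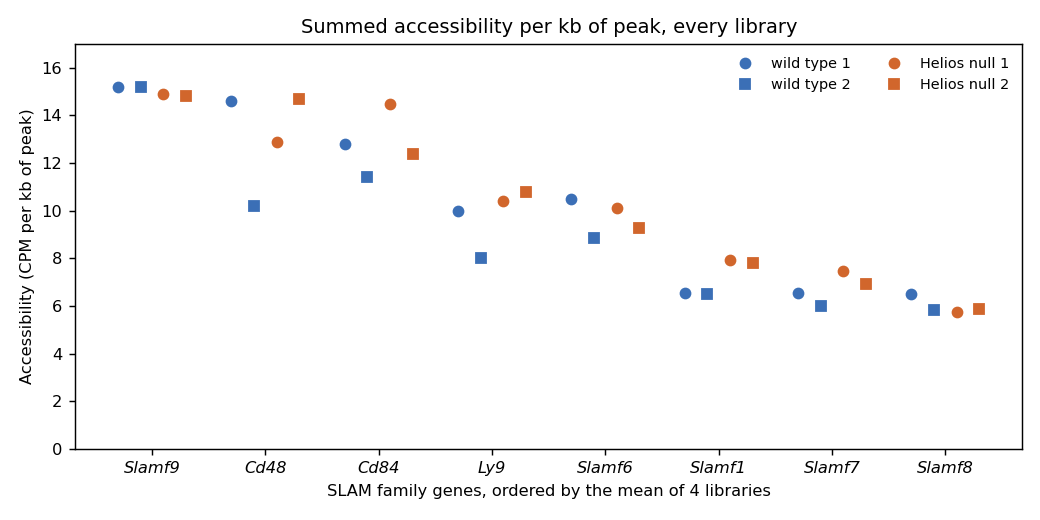
Summed accessibility of each SLAM family gene in CPM per kb of its peaks, 1 point per library, blue for wild type and orange for Helios null, circles for number 1 and squares for number 2. Slamf9 sits near 15 in all 4 libraries and Slamf1, Slamf7 and Slamf8 between 5.73 and 7.93; both null points of Slamf1 are above both wild-type points.

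At the promoters themselves the order was another one. The Slamf1 promoter peak was narrow, at 186 bp, and held 13.5 CPM per kb on average, against 13.1 at the 950 bp peak of Cd48 and 13.2 at the 773 bp peak of Slamf9, and the libraries of these 3 overlapped. The promoter peaks of Slamf8 (5.69 CPM per kb) and Slamf7 (4.90) were lower in every library. By CPM per kb, the promoters of Slamf1, Cd48 and Slamf9 ranked at percentiles 44.4, 43.0 and 43.4 of the 19899 promoter peaks of the table, and those of Slamf8 and Slamf7 at 11.9 and 8.06. Ly9, Slamf6 and Cd84 had no peak of the promoter class. A peak in the first exon of Ly9 spanned the gene's upper end coordinate, a Slamf6 peak began 120 bp after the RefSeq start, and the nearest Cd84 peak 776 bp after it.

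Whether the loss of Helios altered accessibility at the SLAM genes was asked with edgeR's quasi-likelihood test over all 130754 tested peaks, adjusted over all of them. All 42 SLAM peaks were tested, and 0 passed, where 8 of all tested peaks did (0.00612%). At an unadjusted p under 0.05, 0 of the 42 were found, against 19.8% of all tested peaks (8.29% higher and 11.5% lower in Helios null). The smallest unadjusted p among the 42 was 0.0616 and the adjusted p ran from 0.270 to 0.989 in edgeR. Fitted log2 fold changes of Helios null over wild type lay between -0.90 and 0.64, with a median absolute value of 0.209 against 0.395 over all tested peaks. Both null libraries stood above both wild-type libraries at 11 SLAM peaks (26.2%, against 28.0% of all tested peaks) and below at 7 (16.7%, against 28.3%), and the groups overlapped at the other 24. DESeq2 called 1.41% of the peaks it adjusted and 0 of the 18 SLAM peaks among them, and gave the other 24 no adjusted p. Limma-voom called 0 of the 42. At an unadjusted p under 0.05, DESeq2 had 0 and limma-voom 1 of the 42. Without wild type 1, edgeR called 21.5% of all peaks and 0 of the 42. With replicate number as a block it called 23.4% of all peaks and 1 of the 42, in the first intron of Slamf1.

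By annotation class, the fitted value was above 0 at 11 of 13 distant-promoter peaks and 4 of 4 intergenic peaks of the family, against 17432 of 31329 and 10863 of 26016 over all tested peaks of these classes. It was above 0 at 8 of 14 intron peaks (21212 of 42002 over all tested) and 2 of 5 promoter peaks (10182 of 19883). For exon peaks it was 1 of 4 (3294 of 6565) and for transcript-end peaks 0 of 2 (2957 of 4959). The family's counts are directions of values that did not pass, and with offsets for local promoter density only 7 of the 42 were above 0.

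**Figure D3:**
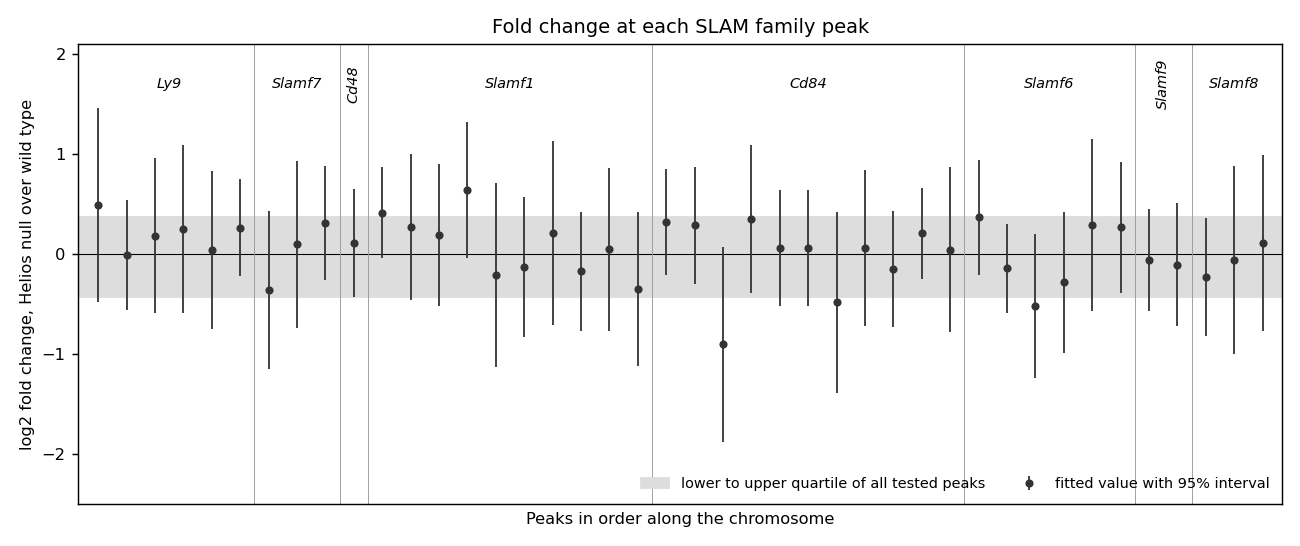
Fitted log2 fold change of Helios null over wild type at each of the 42 SLAM family peaks, in order along the chromosome, with 95% intervals from the edgeR fit; the grey band from -0.43 to 0.37 runs from the lower to the upper quartile of all tested peaks. All 42 intervals include 0.

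Slamf1 had the highest fitted value of the 8 genes with all 4 libraries, but without wild type 1 Cd48 (0.43) and Ly9 (0.40) stood above it (0.27). Summed over its 10 peaks it held 37.0 CPM in both wild-type libraries and 45.0 and 44.3 in Helios null, so that the groups did not overlap. The log2 fold change was 0.27 (SE 0.17, 95% interval -0.12 to 0.66, edgeR adjusted p = 0.313 over 31513 genes), and it was 0.28 within number 1 and 0.26 within number 2, but -0.07 with offsets for local promoter density. Both null libraries stood above both wild-type libraries at 34.1% of all genes and below at 33.5%, so a gap of this kind was common. The difference did not pass the test.

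The strongest Slamf1 site was a distant-promoter peak 4230 bp upstream of the start (start 171761649, end 171762901). It held 14.1 and 13.8 CPM in wild type and 18.5 and 18.6 in Helios null. Both null values were higher, by 0.39 and 0.43 on the log2 scale within numbers 1 and 2, and the fitted log2 fold change was 0.41 (SE 0.21, interval -0.04 to 0.87, edgeR adjusted p = 0.284), or 0.04 with offsets for local promoter density. A first-intron peak (start 171772823, end 171774146) had the smallest p of all 42 peaks, with 3.35 and 5.75 CPM in wild type and 7.26 and 6.72 in Helios null. Wild type 1 was the low library here, and the difference was 1.09 within number 1 and 0.22 within number 2 (fitted 0.64, SE 0.31, edgeR adjusted p = 0.270). It was 0.25 with density offsets. With replicate number as a block it was 0.68 and passed (edgeR adjusted p = 0.0304), as did 23.4% of all tested peaks. The number followed sex and depth in both genotypes, and no label pairs the mice by it. The block takes up differences between the numbers, which the main fit, with genotype alone, leaves in its spread. With the block the upstream Slamf1 peak was at 0.41 and did not pass (edgeR adjusted p = 0.0537). The Slamf1 promoter peak (start 171767051, end 171767236) held 2.49 and 2.20 CPM in wild type and 3.0 and 2.36 in Helios null, with the groups overlapping (log2 fold change 0.19, SE 0.32, edgeR adjusted p = 0.757, and -0.17 with density offsets). The other 7 peaks of Slamf1, from the second upstream site to the transcript end, had log2 fold changes between -0.35 and 0.27, and the groups overlapped at 6 of them, the exception being an intron peak that was lower in both null libraries (4.88 and 5.75 against 4.68 and 4.71 CPM).

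Cd48, whose product is the ligand of CD244 and CD2, had 1 peak assigned to its name, at its promoter (start 171681542, end 171682491). It held 13.9 and 9.94 CPM in wild type and 12.0 and 13.9 in Helios null. Wild type 2 was the lowest library and wild type 1 was level with Helios null 2, so the groups overlapped. The log2 fold change was 0.11 (SE 0.25, interval -0.43 to 0.65, edgeR adjusted p = 0.819), from -0.21 within number 1 and 0.48 within number 2, and it was -0.24 with density offsets. Just upstream, a peak assigned to A630035G10Rik (start 171680921, end 171681457) is also annotated as promoter of the Cd48 transcript. It held 5.98 and 3.55 CPM in wild type and 4.58 and 4.10 in Helios null, which overlapped (-0.15, SE 0.31, edgeR adjusted p = 0.799). A further 3 peaks lie within the Cd48 gene body, but the table assigns them to the predicted gene Gm37010, one of them although its detailed annotation names a Cd48 intron. The one in the Gm37010 exon (start 171689137, end 171689775) held 1.96 and 2.00 CPM in wild type and 3.66 and 2.79 in Helios null (log2 fold change 0.71, SE 0.32, edgeR adjusted p = 0.253), and the other 2 overlapped between the groups.

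The balance of the marker pair was then formed within each library, a measure chosen after the values were known. Slamf1 counts over Cd48 counts gave 2.67 and 3.81 in wild type and 3.67 and 3.18 in Helios null, with means of 3.24 ± 0.804 and 3.42 ± 0.346 (SD, n = 2 each). Both null ratios lay between the wild-type ratios (exact permutation test, 2-sided, p = 1.0, where 2 against 2 cannot go below 0.333). With promoter peaks alone the ratios were 0.179 and 0.221 in wild type and 0.249 and 0.170 in Helios null, which overlapped too.

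Ly9 encodes CD229, a receptor of lymphocytes that binds itself. Its strongest site (start 171618916, end 171620370) held 18.7 and 14.0 CPM in wild type and 18.9 and 20.5 in Helios null. The null libraries were higher, but wild type 1 and Helios null 1 differed by 0.02 on the log2 scale while number 2 differed by 0.55 (fitted 0.26, SE 0.22, edgeR adjusted p = 0.502, and -0.10 with density offsets). The first-exon peak was the most even of the family, at 7.17 and 7.30 CPM in wild type and 7.32 and 7.07 in Helios null (interval of the log2 fold change -0.55 to 0.54).

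Slamf7, which encodes the receptor CRACC of NK and plasma cells, had a promoter peak and an upstream peak whose fitted values had opposite signs. The promoter peak (start 171648922, end 171649239) held 1.76 and 1.74 CPM in wild type and 1.42 and 1.31 in Helios null, so both null libraries were lower (log2 fold change -0.36, SE 0.36, edgeR adjusted p = 0.578). The peak 11246 bp upstream (start 171660246, end 171661054) held 5.35 and 5.36 CPM in wild type and 6.89 and 6.37 in Helios null, so both null libraries were higher (0.31, SE 0.26, edgeR adjusted p = 0.50). Neither passed. With offsets for local promoter density the upstream value was -0.06 and the promoter value -0.74.

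Cd84 encodes SLAMF5, a self-binding receptor found on platelets, B cells and myeloid cells, and it had the most peaks, 11. Its strongest site, in the first intron 9689 bp after the start (start 171849385, end 171849898), held 16.3 and 15.8 CPM in wild type and 19.9 and 17.2 in Helios null. At 33.6 CPM per kb it was the densest SLAM peak, and both null libraries were higher (log2 fold change 0.21, SE 0.21, edgeR adjusted p = 0.579), though the fitted value was -0.13 with density offsets. A pair of intergenic peaks 23259 and 22343 bp upstream held 7.91 and 8.59 CPM, and 4.62 and 4.91 CPM, in wild type. In Helios null they held 10.9 and 9.60, and 6.13 and 5.45, higher in both libraries at both sites (0.32 and 0.29, SE 0.24 and 0.27, edgeR adjusted p = 0.453 and 0.546), and -0.03 and -0.06 with density offsets. The peak with the lowest fitted value of the family was a weak site 18102 bp upstream of Cd84 (start 171821447, end 171821594). The raw counts there were 31 and 23 for wild type and 20 and 15 for Helios null, or 1.03 and 1.49 CPM against 0.660 and 0.654. Both null values were lower (log2 fold change -0.90, SE 0.44, interval -1.87 to 0.07, edgeR adjusted p = 0.277), while the sum over Cd84 lay at 0.16 (SE 0.18). With density offsets the weak site was at -1.25 and the sum at -0.16.

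Slamf6 encodes Ly108, a receptor of T cells and NK cells. Its first-intron peak (start 171920794, end 171921902) was the most accessible SLAM peak, with 24.8 and 21.2 CPM in wild type and 21.1 and 20.6 in Helios null. The null libraries were lower by a narrow margin (log2 fold change -0.14, SE 0.20, interval -0.58 to 0.30, edgeR adjusted p = 0.699). An exon peak of Slamf6 (start 171933672, end 171934187) held 2.62 and 2.58 CPM in wild type and 1.88 and 1.75 in Helios null, lower in both null libraries (-0.52, SE 0.33, edgeR adjusted p = 0.373). The peak just after the start went the other way, with 6.05 and 5.23 CPM in wild type and 7.65 and 6.94 in Helios null (0.37, SE 0.26, edgeR adjusted p = 0.426). The sum over the gene was level at 37.9 ± 4.53 and 38.0 ± 2.41 CPM (SD, n = 2 each). With density offsets the first-intron, exon and start peaks were at -0.40, -0.78 and 0.11, and the sum was at -0.22.

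Slamf8 and Slamf9 encode family members with short cytoplasmic tails that lack the adaptor-binding motif and are best known from macrophages and dendritic cells. The Slamf9 promoter (start 172474989, end 172475761) held 10.8 and 10.1 CPM in wild type and 10.2 and 9.90 in Helios null, with overlapping groups (log2 fold change -0.06, interval -0.56 to 0.45, edgeR adjusted p = 0.906). Its exon peak (start 172478086, end 172478306) held 4.35 and 5.42 CPM against 4.32 and 4.71. The Slamf8 promoter (start 172590173, end 172591100) held 5.22 and 6.20 CPM in wild type and 4.82 and 4.89 in Helios null, lower in both null libraries (-0.23, SE 0.27, edgeR adjusted p = 0.639). The sum over Slamf9 was 15.1 CPM in both wild-type libraries and 14.8 and 14.7 in Helios null, a gap of less than 1 CPM. For Slamf9 and Slamf8 the fitted sums were -0.04 and -0.09. With density offsets these sums were -0.30 and -0.27, and the promoter peaks of Slamf9 and Slamf8 were at -0.34 and -0.45.

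**Figure D4:**
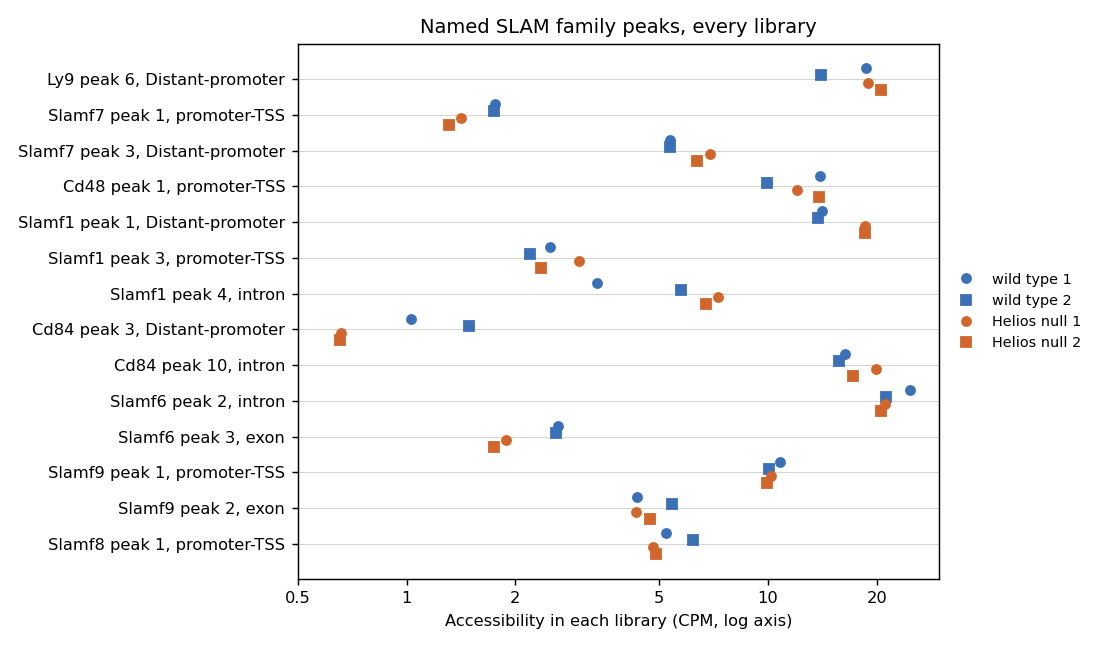
Accessibility in CPM (log axis) of the 14 named SLAM family peaks in every library, blue for wild type and orange for Helios null, circles for number 1 and squares for number 2. The first-listed Slamf1 peak shows a gap, with 13.8 and 14.1 in wild type and 18.5 and 18.6 in Helios null, while the Cd48 promoter and both Slamf9 peaks overlap.

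Summed over each gene's peaks, 0 of the 8 members passed, as did 0 of 31513 genes (0%) with edgeR, where 25.3% of all genes and 0 members had an unadjusted p under 0.05. DESeq2 called 4.69% of the genes it adjusted, and edgeR 47.0% with the block and 39.0% without wild type 1, each with 0 of the 8 members. The fitted values of the 8 genes lay between -0.09 and 0.27, and 6 were above 0, but with offsets for local promoter density 0 of 8 were, and the median over the 42 peaks went from 0.06 to -0.26 while that over all peaks stayed at 0.01. The other 104 peaks that lie between the first and the last SLAM peak and carry other gene names had a median of -0.03, 0 passed, and 1 had an unadjusted p under 0.05.

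Genes that act with the SLAM receptors were taken as a list of ligands, adaptors and signalling molecules. Its 17 names stood for 16 genes, Cd244 being entered also as Cd244a, and all 16 had peaks. None passed with edgeR (adjusted p of at least 0.179), and the unadjusted p was under 0.05 for 1 of the 16 with a higher and 2 with a lower value, where 10.2% of all genes were higher and 15.1% lower at that level. Sh2d1a, the gene of the adaptor SAP on which most SLAM signalling rests, held 23.1 and 38.7 CPM in wild type and 14.7 and 20.4 in Helios null (log2 fold change -0.81, SE 0.29, edgeR adjusted p = 0.179). Both null libraries were lower, with log2 differences of -0.65 and -0.92 within the numbers. Pik3c3, a lipid kinase that forms a complex with Becn1, held 44.5 and 59.3 CPM in wild type and 26.5 and 31.5 in Helios null (-0.84, SE 0.21, edgeR adjusted p = 0.179). Becn1 went the other way, with 11.6 and 8.08 CPM against 14.6 in both null libraries (0.57, SE 0.25, edgeR adjusted p = 0.200), as did Uvrag (0.32, SE 0.19). The phosphatase gene Ptpn11 held 50.4 and 32.6 against 70.4 and 55.8 CPM (0.60, SE 0.24, edgeR adjusted p = 0.187). The 2 partners of CD48 lay at 0.30 for Cd2 (SE 0.20, groups overlapping) and 0.43 for Cd244 (SE 0.20, edgeR adjusted p = 0.216). Cd244 held 51.6 and 38.2 CPM in wild type and 65.1 and 56.3 in Helios null. Its fitted value was above that of each of the 8 SLAM genes described here, which reached 0.27.

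Other stem and progenitor markers were compared in the same way, 11 of 12 names having peaks. With edgeR 0 passed, and the unadjusted p was under 0.05 for 4 of the 11 with a higher and 0 with a lower value, beside the same 10.2% and 15.1% of all genes. The fitted value was above 0 in 6 of the 11, against 16059 of all 31513 tested genes. Both null libraries stood above in 5 and below in 2, against 34.1% and 33.5% of all genes. Itga2b, the gene of the platelet integrin CD41, held 55.8 and 46.0 CPM in wild type and 94.2 and 66.3 in Helios null (log2 fold change 0.66, SE 0.22, edgeR adjusted p = 0.179). Thy1, a surface marker gene also used to divide the gate, held 16.7 and 13.1 against 30.8 and 23.0 CPM (0.85, SE 0.23, edgeR adjusted p = 0.179). In Itga2b and Thy1 the null libraries stood above the wild-type libraries. They also did so in Kit (0.44, SE 0.18, edgeR adjusted p = 0.192), Procr (0.58, SE 0.24, edgeR adjusted p = 0.191) and Fcgr3 (0.29, SE 0.18). Cd34, the gene of a progenitor surface sialomucin, stood below, with 126 and 124 against 109 and 102 CPM (-0.24, SE 0.16, edgeR adjusted p = 0.326), as did the interleukin receptor gene Il7r (-0.26, SE 0.20). Tek, the angiopoietin receptor gene, had the lowest fitted value of the list (-0.40, SE 0.34), with overlapping groups. Flt3, the cytokine receptor gene of multipotent progenitors, held 68.3 and 53.8 against 64.7 and 64.1 CPM, which overlapped, as Cd48 did.

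**Figure D5:**
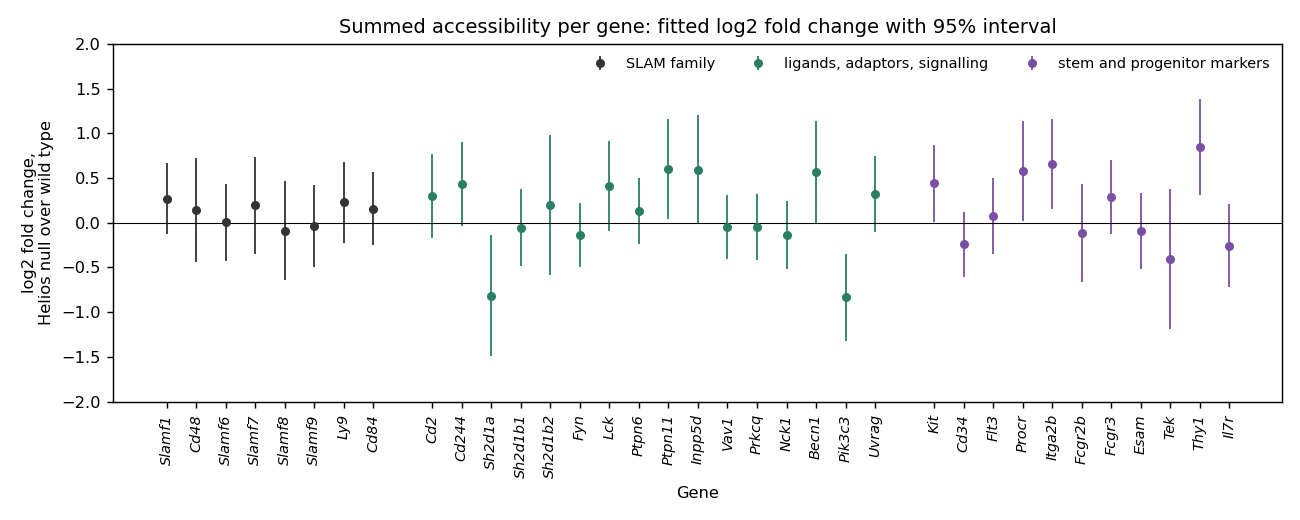
Fitted log2 fold change of Helios null over wild type with 95% interval, for accessibility summed per gene. Black marks the 8 SLAM genes described here and purple other stem and progenitor markers. Green marks the list of ligands, adaptors and signalling genes, which holds Cd244 at 0.43. The 8 SLAM values lie between -0.09 and 0.27, while the other lists reach from -0.84 (Pik3c3) to 0.85 (Thy1).

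By the pattern over the 4 libraries, the gene most like Slamf1 was Tbk1, with a root mean square difference of 0.0106 in centred log2 CPM among 12210 genes of similar level. It was followed by 2810414N06Rik (0.0123) and Aplf (0.0144). For Cd48 they were Gm29266 (0.00656), Zfp783 (0.0172) and Ifnl3 (0.0254) among 10200 genes.

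The authors' deposited table gave an adjusted p to 18 of the 42 SLAM peaks and none to the other 24. In the authors' deposited table the adjusted p of the 18 ran from 0.289 to 0.988 and 0 were called, against 1.41% of all peaks with an adjusted p there. The log2 fold changes of the authors' deposited table lay between -0.12 and 0.26 at SLAM peaks, while DESeq2 run on the same counts gave -0.93 to 0.63. At all 38 SLAM peaks where that DESeq2 value was at least 0.05 in size, the value in the authors' deposited table was nearer to 0, and the adjusted p were equal within 0.001 at all 18 peaks that had them. The fold changes in the authors' deposited table are thus on a shrunken scale and understate those of the count fits.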

How the data were processed

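Each of the 4 fast-ATAC libraries came from sorted marrow of 1 mouse, 2 per genotype, per the labels' protocols. The submitters' processing notes name the mm10 build, DESeq, HOMER, Bowtie2 2.3.4.3 and bcl2fastq 2.17.1.14. The sources used here do not give how peaks were called, or whether per library or pooled. Per the file headers, the library values are raw counts per peak. The deposited baseMean is a signal, a mean count scaled by size factors. Fold changes and their errors are deposited on the log2 scale, and comparison with DESeq2 on the same counts showed them to be shrunken. The deposited p-value is joined by an adjusted one where baseMean was at least 96.7.

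Counts were tested with edgeR 4.0.16 (glmQLFit, glmQLFTest, 2-sided) in R 4.3.3 after filterByExpr by group, which dropped 187 peaks, and TMM (factors 0.966 to 1.02). The Benjamini-Hochberg adjusted p had to be under 0.05 over all peaks, or over all genes for counts summed over the peaks of a gene name. Summed counts had their own TMM factors, so CPM of a gene with 1 peak differs slightly from that of the peak. SE is the absolute log2 fold change over the square root of F, and intervals cover 95%. Differences within a library number used log2 CPM with a prior count of 2. Named peaks of each gene were those of the promoter class, the most accessible, the one with the smallest p and any called one, 14 in all. 1 further marker gene is not reported here and was left out of the lists. Members, lists and tests were chosen with earlier results of these data known. The tests were tried on simulated data. Counting error did not account for the spread between replicates (chi-square per peak 8.29 in wild type, 5.13 in Helios null). Same-numbered libraries deviated together across peaks (correlation 0.371), but no label ties a number to a litter or day. The settings tried were total counts, DESeq2 size factors, loess offsets, offsets for promoter peaks within 0.5 Mb, no filter, at least 1 CPM in 2 libraries, replicate number as a block, DESeq2 1.42.0, limma-voom (limma 3.58.1), each library left out and, for gene sums, promoter peaks left out.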

Additional observations from a re-analysis of the deposited data

Results flagged for a closer look

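At 3 of the 8 genes the difference between null and wild type had opposite signs in the libraries numbered 1 and those numbered 2. These are of different sex and depth. The share of all genes with opposite signs is not given, so the count is not a trait of the family. The difference between the numbers was not tested, since each genotype has 1 library per number. For Cd48 the log2 difference of null and wild type was -0.18 in number 1 and 0.52 in number 2, which are 0.69 apart. For Slamf6 it was -0.05 and 0.07 (0.11 apart), and for Slamf8 -0.18 and 0.02 (0.20 apart). Both Slamf6 values and the number 2 value of Slamf8 were close to 0, so their signs carry little.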

How the results depend on the processing

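Of all peaks, edgeR called 8, DESeq2 774, limma-voom 4, and edgeR 39 to 28120 when 1 library was left out. Of all genes by summed peaks, edgeR called 0, total counts 2, promoter density offsets 3, DESeq2 1249, limma-voom 1, and edgeR 11 to 12306 when 1 library was left out. None of the 42 SLAM peaks was called under these settings (DESeq2 adjusted only 18 of them), nor any of the 8 genes (0 also with promoter peaks left out). With the replicate block, edgeR called 30595 peaks and 14808 genes but 1 SLAM peak, the first-intron peak of Slamf1 (log2 fold change 0.68, edgeR adjusted p = 0.0304), and 0 SLAM genes. The median over SLAM peaks was 0.25 when wild type 1 and -0.05 when wild type 2 was left out, and -0.26 with promoter density offsets, against 0.06. Under the latter 7 of 42 fitted values were above 0 in place of 26, and 4 were lower at an unadjusted p under 0.05. The cause was not tested. With 2 libraries per genotype the ends of the 95% intervals at SLAM peaks reached -1.87 and 1.47.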
